A study of Mus musculus with 12 samples.

Results

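The genes described are 2 granins and 8 peptide hormones of the enteroendocrine cells of the gut: Chga, Chgb, Gip, Sct, Cck, Sst, Ghrl, Nts, Pyy and Gcg. They were chosen by symbol from the table of 14244 genes, and all 10 were present and among the 12808 genes that passed the filter on low values. RNA came from gut epithelial cells of male C57BL/6 littermates at 8 weeks of age, 5 wild type (WT) and 7 Chd8L+/- mice, each sequenced as its own library. The Chd8L+/- animals carry 1 copy of Chd8 from which internal exons are deleted throughout the body, so that the long form of this chromatin remodeler is lost from that copy. They were bred from Chd8L+/- males and WT females. The segment of gut behind each library is not given in the labels, and these genes differ in where along the gut they are used.

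Enteroendocrine cells are scattered, rare cells of the gut lining that sense the contents of the lumen and release peptide hormones into the blood. Granins are acidic proteins that pack hormones into dense secretory granules, and they serve as general markers of these cells. Each hormone is made by a subset of enteroendocrine cells with its own place along the gut. Gip, Sct and Cck are typical of the upper small intestine, Ghrl of the stomach, and Nts, Pyy and Gcg of the ileum and colon, while Sst is made along the whole gut. Below, Ghrl and Sst are grouped with the hormones of the upper gut.

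The hormones Gip, Sct and Gcg come from 1 peptide family, that of glucagon and secretin, and their upstream sequences are shown because Gip and Sct had lower and Gcg had higher mean levels in the libraries labelled Chd8L+/-. Each run is the 250 bases before the RefSeq start (GRCm38.p6), written 5′ to 3′ on the strand of the gene, which is minus for Sct and Gcg and plus for Gip. Capitals mark 3 motifs found on either strand. The first, TATAA, is a core promoter motif. The second, AGATAA, is of the kind bound by the GATA factors. The third, CAGATG, is an E-box of the kind bound by NEUROD1.
Gip, chr11:96024295-96024544: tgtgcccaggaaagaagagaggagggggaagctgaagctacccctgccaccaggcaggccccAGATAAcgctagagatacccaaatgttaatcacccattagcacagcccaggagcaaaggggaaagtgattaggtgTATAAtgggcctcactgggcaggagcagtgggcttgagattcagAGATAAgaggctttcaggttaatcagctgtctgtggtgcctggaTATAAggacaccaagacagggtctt
Sct, chr7:141279134-141279383: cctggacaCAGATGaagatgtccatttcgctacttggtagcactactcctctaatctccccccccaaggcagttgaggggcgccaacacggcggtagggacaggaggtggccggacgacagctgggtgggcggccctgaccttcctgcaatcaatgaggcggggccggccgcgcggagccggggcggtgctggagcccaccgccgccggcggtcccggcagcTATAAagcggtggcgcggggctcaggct
Gcg, chr2:62483654-62483903: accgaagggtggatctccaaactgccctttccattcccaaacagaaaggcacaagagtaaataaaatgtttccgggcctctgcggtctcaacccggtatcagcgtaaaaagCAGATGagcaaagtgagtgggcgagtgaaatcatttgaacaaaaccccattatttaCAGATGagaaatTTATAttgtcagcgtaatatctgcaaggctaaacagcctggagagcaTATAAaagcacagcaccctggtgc
All 3 hold TATAA close to the start, with its first base 25 bases upstream in Gip, 28 in Sct and 24 in Gcg. Pyy holds it 27 bases upstream. TATAA occurred in 22.8% of 32851 mouse promoters of the same length. CAGATG was found in Sct, Gcg and Cck and in 14.4% of all promoters, and AGATAA in Gip, Cck and Nts and in 9.99%.

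The granins and somatostatin are set beside each other because all 3 hold TGACGT, the core of the cAMP response element, which 6.47% of all promoters hold on either strand. Each run below is 30 bases on the strand of the gene, from the RefSeq promoters of GRCm38.p6, with the element in capitals. Chgb and Sst hold the palindrome in which the motif and its reverse complement overlap.
Chga, chr12:102554885-102554914, plus strand: ggggcggtcctaTGACGTaatttcctgggt
Chgb, chr2:132781558-132781587, plus strand: ggggctgctccgTGACGTCAgggctgagcg
Sst, chr16:23890875-23890904, minus strand: cgcctccttggcTGACGTCAgagagagagt
The element begins 44, 72 and 48 bases before the RefSeq start of Chga, Chgb and Sst. The first transcript of Chgb in the GENCODE annotation starts farther upstream than RefSeq has it, and so does that of Sst, so these windows can lie within an annotated transcript. A match of letters is a description and says nothing of binding in these cells.

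The libraries held 15691662 to 20761315 reads on genes, and the 10 genes together summed to 6149 to 11430 normalized counts, the unit of the table, in which reads are divided by a size factor for depth. The lowest count of any of them was 55 reads, for Pyy, where counting error alone is 13.5%. In a principal component analysis of all tested genes, the first component held 39.7% of the variance. WT replicate 2 stood at 41.0 on it, within the range of 0.26 to 42.7 of the libraries labelled Chd8L+/- and apart from the other WT libraries at -67.5 to -26.2. For named genes that pass the threshold without this library, that is said beside the values from all 12 libraries. Chd8 itself stood at 823 to 1050.2 normalized counts in WT and at 1084 to 1483 in the libraries labelled Chd8L+/- (limma log2 fold change 0.44, SE 0.10, adjusted p = 0.121). The count is of the whole gene, exons outside the deletion included, so it does not check the deletion or the labels in either direction. The group names are those of the labels.

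Per kilobase of exon, which is the scale on which genes can be compared, Gip was the most abundant hormone of the set and Ghrl the least. In WT libraries the mean level per kilobase was 1593 ± 485 for Gip, 1045 ± 335 for Chgb, 982 ± 360 for Sct, 812 ± 351 for Nts and 738 ± 172 for Sst (normalized counts per kilobase, SD, n = 5). It was 517 ± 202 for Chga, 361 ± 72.5 for Cck, 312 ± 177 for Pyy, 236 ± 85.6 for Gcg and 126 ± 37.3 for Ghrl. By the mean over all 12 libraries, among all tested genes with a known length, Gip stood at percentile 95.3 and Ghrl at percentile 63.0. The steps of this order that held in 5 of 5 WT libraries were Sct above Nts and Sst above Chga. The other neighbours changed places in 1 or 2 of the 5 libraries, so their order was not constant, and their differences were not tested.

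In the libraries labelled Chd8L+/-, Chgb led at 1079 ± 247 normalized counts per kilobase, before Gip at 1066 ± 313 (SD, n = 7). Gip was above Chgb in 2 of these 7 libraries, against 4 of the 5 WT libraries. Chgb was above Sct in 7 of 7, where it was above in 3 of 5 WT libraries. Gcg, last but one in WT, had a mean of 296 ± 90.0, beside 273 ± 121 for Cck and 198 ± 105 for Pyy. The means of Gcg and Cck differed by less than the spread of either. Pyy was above Gcg in 1 of 7 libraries, and Gcg was above Ghrl in 7 of 7. Whether the order differed between genotypes was not tested.

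**Figure D1:**
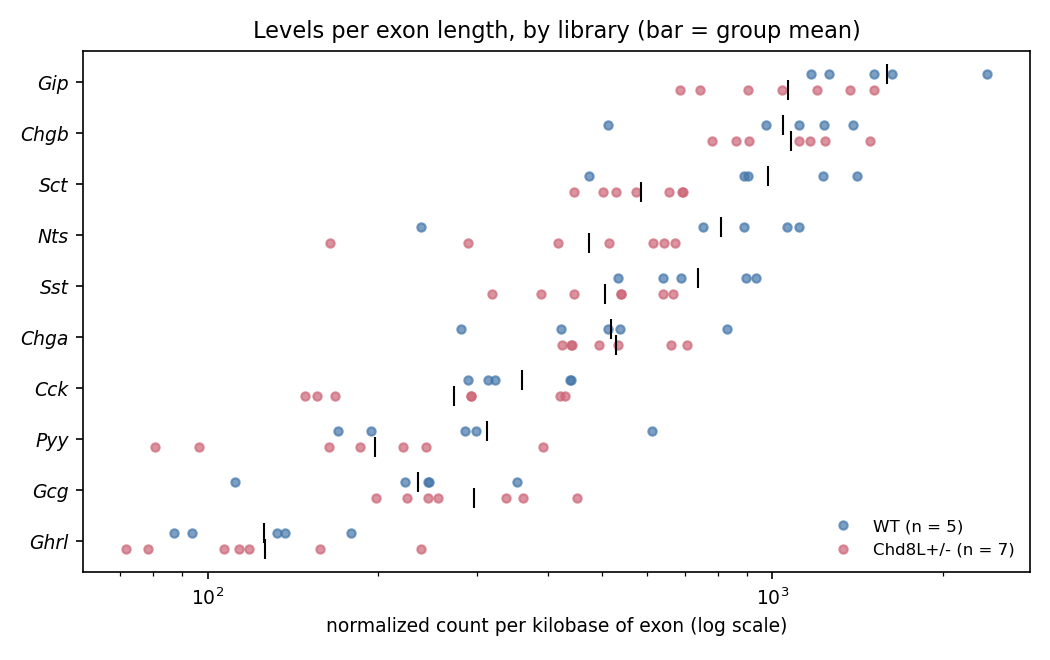
Level of each gene in every library as normalized counts per kilobase of exon, on a log scale, with WT in blue, Chd8L+/- in red and a bar at the mean of each group. The genes span from Gip at a WT mean of 1593 down to Ghrl at 126, and the points of neighbouring genes overlap widely.

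The comparison between genotypes asks whether the enteroendocrine program differs in Chd8L+/- gut epithelium. None of the 10 genes passed the adjusted threshold of 0.05 in limma with all 12 libraries, where 0.0234% of all tested genes did. Mean levels of Gip, Sct and Sst in the libraries labelled Chd8L+/- were 0.595 to 0.684 of the WT means, and these 3 of the 10 passed the limma test at 0.05 before adjustment. Of all tested genes, 24.3% did so in either direction and 11.8% with the lower level in Chd8L+/-. The fitted value was negative for 7 and positive for 3 of the 10, where 48.6% of all genes had a negative one. The median log2 fold change of the 10 genes was -0.53, and over all tested genes 0.014. The RNA is from bulk cells, so fewer cells of a type and less RNA per cell cannot be told apart.

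In no gene of the set did the genotypes separate fully: the 5 WT and 7 Chd8L+/- libraries overlapped in all 10, and 0.515% of all tested genes had groups without overlap. In Gip, Sct, Sst and Nts, all 7 libraries labelled Chd8L+/- lay below the WT median. This was the case for 15.7% of all tested genes.

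**Figure D2:**
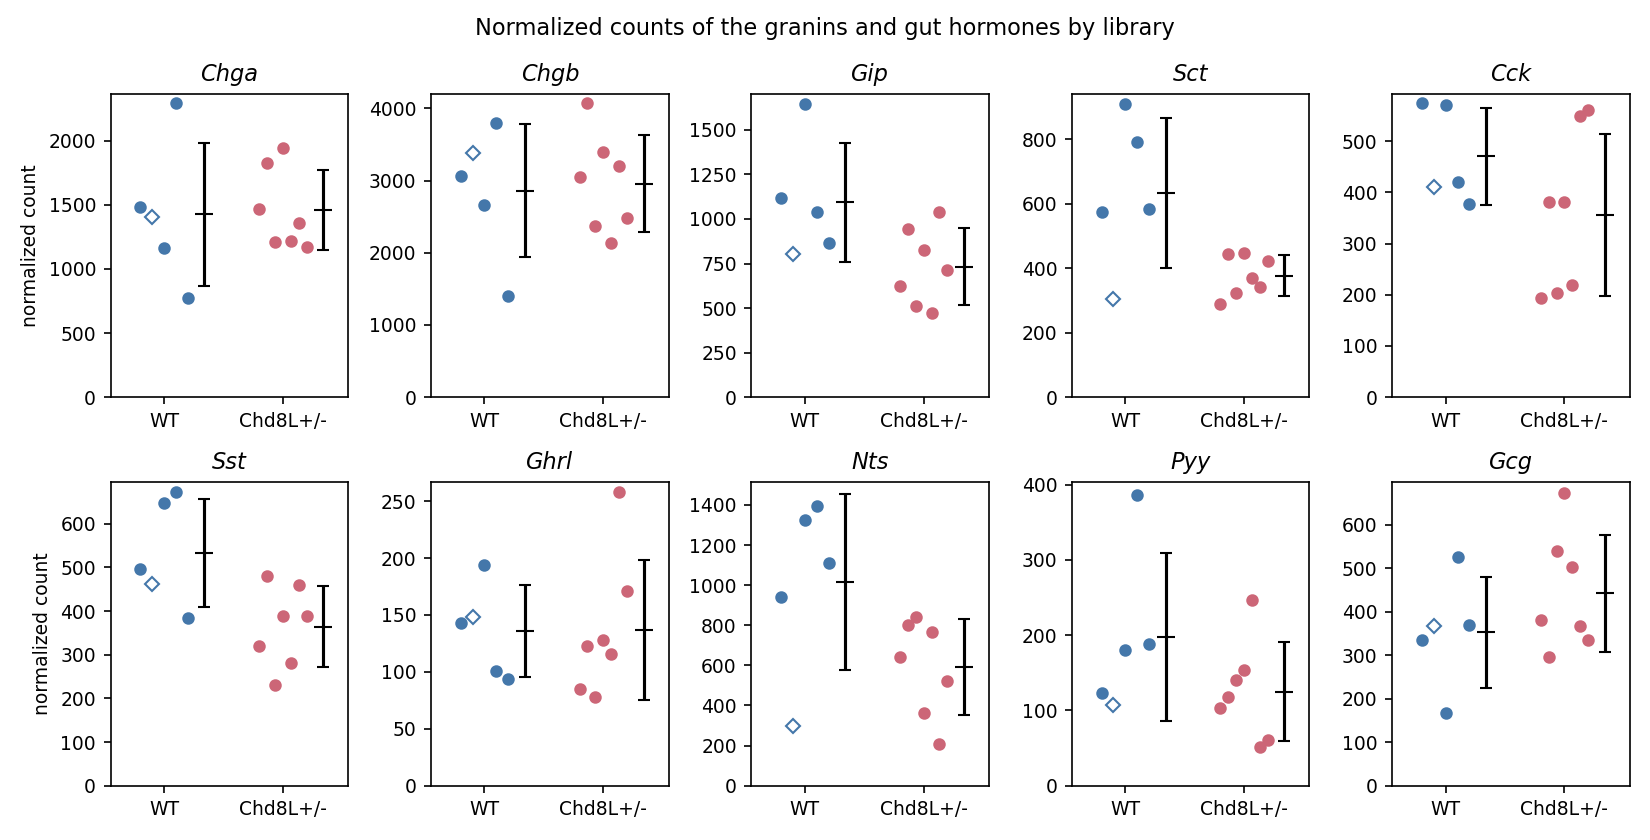
Normalized count of each gene in every library (points, linear axes from 0), with the mean and SD of each genotype as a bar beside them and WT replicate 2 as an open diamond. For Sct and Nts the other 4 WT libraries lie above all 7 Chd8L+/- libraries, while both granins overlap throughout.

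Chga and Chgb encode chromogranin A and chromogranin B, the granule proteins shared by most enteroendocrine cell types. Chga (GRCm38 chromosome 12, 102554969 to 102565028, plus strand) stood at 1483, 1407, 1166, 2292 and 775 normalized counts in WT replicates 1 to 5. It ranged from 1168 to 1945 in the libraries labelled Chd8L+/-, with a median of 1360.2. The highest and the lowest library were both WT, replicates 4 and 5. The means were 1424 ± 558 and 1457 ± 312 (SD, n = 5 and 7), a difference well within the spread (limma log2 fold change 0.094, SE 0.22, 95% interval -0.39 to 0.57, adjusted p = 0.820).

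Chgb (chromosome 2, 132781278 to 132795079, plus strand) had the same low library. Its WT values were 3057, 3383, 2666, 3804 and 1402 normalized counts in replicates 1 to 5. In the libraries labelled Chd8L+/- it ran from 2138 over a median of 3047 to 4073. The means of 2862 ± 918 and 2957 ± 676 (SD) differed by less than the spread of either group (limma log2 fold change 0.092, SE 0.23, 95% interval -0.40 to 0.59, adjusted p = 0.831). The ratio of Chgb to Chga counts was held narrowly, at 1.66 to 2.40 in WT and 1.75 to 2.35 in Chd8L+/- libraries. The sum of the granins was 4287 ± 1436 in WT and 4414 ± 956 in Chd8L+/-. Without WT replicate 5 the fitted values of both granins turned negative, to -0.10 for Chga and -0.15 for Chgb.

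Sct encodes secretin, which S cells of the duodenum release on contact with acid and which drives bicarbonate secretion. The gene lies on chromosome 7 from 141278330 to 141279133, on the minus strand. WT replicates 1 to 5 stood at 575, 305, 910.4, 792 and 583 normalized counts. The libraries labelled Chd8L+/- lay close together, between 288 and 447 with a median of 369.9. All WT libraries but replicate 2 were above the highest of them. The means were 633 ± 232 in WT and 377 ± 63.1 in Chd8L+/- (SD), and the difference missed the adjusted threshold (limma log2 fold change -0.67, SE 0.23, 95% interval -1.16 to -0.19, adjusted p = 0.127). Without WT replicate 2, Sct was lower past the threshold with no overlap between genotypes (log2 fold change -0.91, SE 0.17, adjusted p = 0.00394). Without WT replicate 3, its highest library, it did not pass (limma log2 fold change -0.52, adjusted p = 0.345).

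Gip encodes the glucose-dependent insulinotropic peptide, an incretin of the K cells of the upper small intestine that raises insulin release after a meal. It lies on chromosome 11 from 96024545 to 96030831 on the plus strand. Its WT values were 1118, 803, 1645, 1040.4 and 865 normalized counts in replicates 1 to 5, with replicate 3 the highest of all 12 libraries. In the libraries labelled Chd8L+/- the lowest value was 470.4, the median 714 and the highest 1039, and 4 of the 7 lay below the lowest WT library. The means were 1094 ± 333 and 732 ± 215 (SD), a difference that did not pass (limma log2 fold change -0.59, SE 0.22, 95% interval -1.06 to -0.11, adjusted p = 0.147). It passed without WT replicate 2 (log2 fold change -0.69, SE 0.23, adjusted p = 0.0416).

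Sst encodes somatostatin, the peptide of D cells that restrains the release of most other gut hormones. The gene lies on chromosome 16 from 23889573 to 23890958, on the minus strand. It stood at 496, 462, 647, 673 and 384 normalized counts in WT replicates 1 to 5. The libraries labelled Chd8L+/- had values from 229.7 to 481 with a median of 388, and 3 of the 7 fell under the lowest WT library. The means of 532 ± 124 and 364 ± 92.3 (SD) did not differ past the adjusted threshold (limma log2 fold change -0.56, SE 0.20, 95% interval -0.99 to -0.13, adjusted p = 0.135). WT replicate 2 was not the lowest of its group here, and without it the adjusted p was 0.0539.

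Cck encodes cholecystokinin, the hormone of I cells that empties the gallbladder and curbs food intake. It lies on chromosome 9 from 121489824 to 121495694 on the minus strand. WT replicates 1 to 5 had 574, 409.9, 572, 421 and 377 normalized counts. The libraries labelled Chd8L+/- spread from 194 to 560.2 around a median of 382. Replicates 1, 3 and 5 of them, at 194, 204 and 219, were below every WT library, and the other 4 were within the WT range. The means were 471 ± 94.6 and 356 ± 157 (SD; limma log2 fold change -0.51, SE 0.28, 95% interval -1.11 to 0.097, adjusted p = 0.275).

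Ghrl encodes ghrelin, the appetite-stimulating hormone best known from the stomach. It lies on chromosome 6 from 113716119 to 113719880 on the minus strand, where Gm26982 and Gm44033 overlap it on the other strand. The use of strand in counting is not given in the sources used here, so reads of these genes cannot be told apart. Its WT values were 143, 148, 194, 101 and 94.0 normalized counts in replicates 1 to 5, and its Chd8L+/- values ran from 77.5 over a median of 123 to 258. The means were equal within a small part of the spread, 136 ± 40.3 and 137 ± 61.6 (SD; limma log2 fold change -0.052, SE 0.28, 95% interval -0.66 to 0.56, adjusted p = 0.927). The fitted value was positive with edgeR and DESeq2, at 0.015 and 0.0047.

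Nts encodes neurotensin, which N cells of the ileum release after fat. The gene lies on chromosome 10 from 102481756 to 102490486, on the minus strand. WT replicates 1 to 5 stood at 941, 297, 1325, 1392 and 1112 normalized counts, so replicate 2 lay far below the other WT libraries. In the libraries labelled Chd8L+/- the lowest was 206, the median 641 and the highest 840.3. The other 4 WT libraries were all above that highest value. The means were 1014 ± 438 and 591 ± 240.4 (SD), and the difference did not pass with all libraries (limma log2 fold change -0.74, SE 0.41, 95% interval -1.62 to 0.15, adjusted p = 0.278). Without WT replicate 2 the groups no longer overlapped and Nts was lower past the threshold (log2 fold change -1.13, SE 0.33, adjusted p = 0.0243).

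Pyy encodes peptide YY, a satiety hormone of the L cells. It lies on chromosome 11 from 102106676 to 102107832 on the minus strand. WT replicates 1 to 5 stood at 123, 108, 180.5, 387 and 188 normalized counts, with replicate 4 apart from the rest. The libraries labelled Chd8L+/- ran from 51.0 over a median of 117 to 247. Pyy was the most variable gene of the set, 7.59-fold from the lowest to the highest library. The means were 197 ± 112 and 125 ± 66.0 (SD; limma log2 fold change -0.67, SE 0.39, 95% interval -1.50 to 0.16, adjusted p = 0.293). The fitted value was -0.39 without WT replicate 4, -0.28 with the replicate number as a block and -0.22 with the library letter as a block.

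Gcg encodes proglucagon, from which L cells cut the glucagon-like peptides. It lies on chromosome 2 from 62474530 to 62483650 on the minus strand. In limma with all 12 libraries it was the only 1 of the 8 hormones with a positive fitted value. WT replicates 1 to 5 had 334, 367, 167, 527 and 369 normalized counts. The libraries labelled Chd8L+/- had 297 to 673 with a median of 382, and 2 of the 7 were above every WT library. The means of 353 ± 128 and 443 ± 134 (SD) differed by less than 1 SD (limma log2 fold change 0.36, SE 0.26, 95% interval -0.20 to 0.92, adjusted p = 0.398). The fitted value was 0.12 without WT replicate 3, the lowest library, and 0.70 with a block on the letter that opens the library name (adjusted p = 0.0502).

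**Figure D3:**
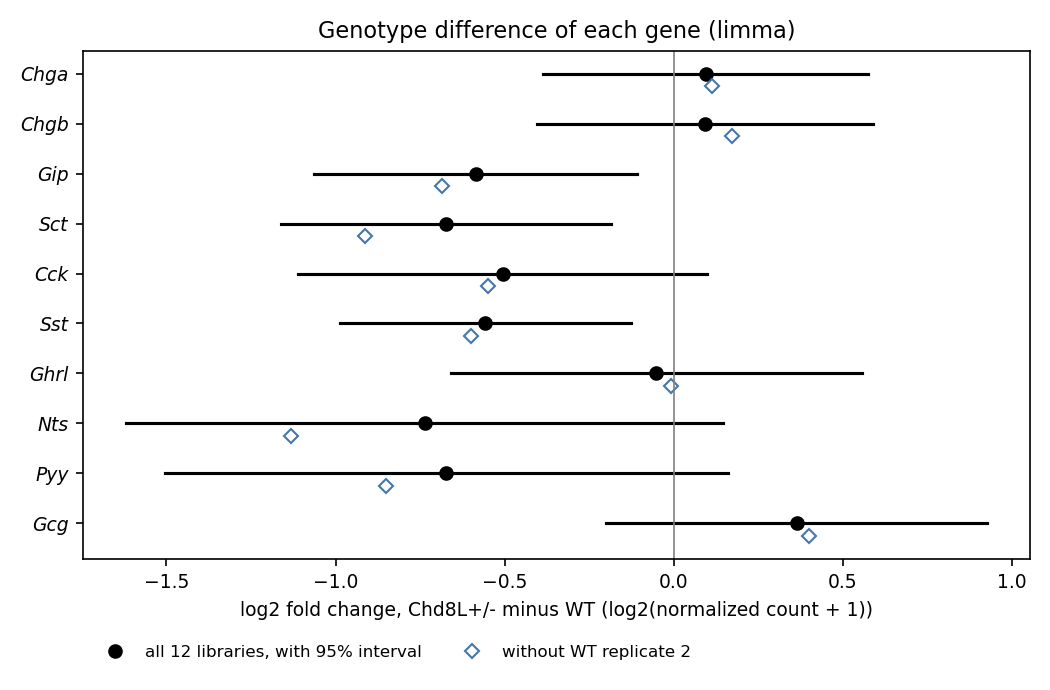
Log2 fold change of each gene, Chd8L+/- minus WT on the log2(normalized count + 1) scale, from all 12 libraries (black, with its 95% interval) and without WT replicate 2 (open diamonds). The intervals of Gip, Sct and Sst lie below 0, and the diamonds of Sct and Nts lie farthest to the left.

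Without WT replicate 2, 3 of the 10 genes were lower past the threshold (Sct, Nts and Gip) and none was higher, where 13.6% of all tested genes were lower and 27.6% passed in either direction. Sct and Nts were then the 2 genes of the set without overlap between genotypes, against 7.71% of all genes lower without overlap. Such counts tend to rise when the WT library most like those labelled Chd8L+/- is removed. With any other library left out, none of the 10 passed. DESeq2 on the recovered reads called Sct alone (log2 fold change -0.75, adjusted p = 0.0348), where it called 6.44% of the genes with an adjusted p. A block on the letter that opens the library name left Gip alone past the threshold, and 3.52% of all genes. The quasi-likelihood test of edgeR called none of the 10 and 0.0390% of all genes.

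Summed over the 8 hormones, WT libraries held 4430 ± 1101 and Chd8L+/- libraries 3125 ± 323 normalized counts (SD). The WT sums ran from 2900.0 in replicate 2 to 5641 and the Chd8L+/- sums from 2636 to 3591, and the other 4 WT libraries were above all 7. The 5 hormones of the upper gut summed to 2867 ± 725 in WT and 1966 ± 519 in Chd8L+/-. The 3 of the lower gut summed to 1564 ± 554 and 1159 ± 319. These sums are led by the genes with most reads, Gip and Nts.

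Ratios of counts within a library do not depend on library scaling. Gcg counts were 0.102 to 0.506 of the Gip counts in WT and 0.315 to 1.07 in Chd8L+/- libraries, and 4 of the 7 lay above every WT library. Pyy counts were 0.293 to 1.08 of the Gcg counts in WT and 0.139 to 0.491 in Chd8L+/-, with 5 of the 7 below every WT library. Pyy and Gcg are both products of L cells. Sst counts relative to Chga were 0.294 to 0.555 in WT and 0.189 to 0.339 in Chd8L+/-, again with 5 of the 7 below every WT library. These 3 were picked from 12 ratios computed, with the values in view, and were not tested.

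Within genotypes, 3 pairs of the set varied together from library to library, the granins, Cck with Ghrl, and Gip with Sst. Correlations were taken over 12 libraries on deviations of log2(value + 1) from the genotype mean, for all 45 pairs, with permutation tests. Chga and Chgb had a Pearson r of 0.902 (permutation p = 0.00012, adjusted p = 0.0054) and a Spearman rho of 0.916 (p = 0.00022, adjusted p = 0.0099). Their r was 0.830 without the 2 libraries farthest from the median. Cck and Ghrl had an r of 0.853 (permutation p = 0.000610, adjusted p = 0.0137) and a rho of 0.853 (adjusted p = 0.0333), and an r of 0.836 without 2 libraries. Gip and Sst had an r of 0.849 (adjusted permutation p = 0.0190) and a rho of 0.832 (adjusted p = 0.0364), and an r of 0.849 without 2 libraries. No other pair of the 45 passed the adjusted threshold for r.

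**Figure D4:**
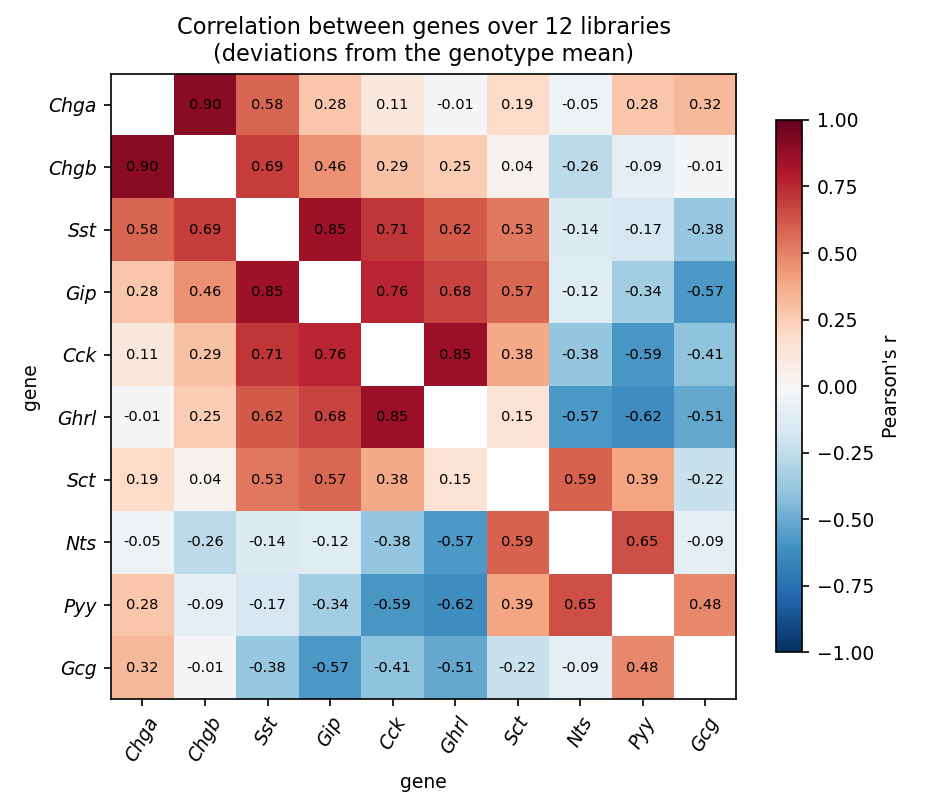
Pearson r of each pair of genes over the 12 libraries, computed on deviations from the genotype mean, in red for positive and blue for negative values. The darkest cells are Chga with Chgb at 0.90, Cck with Ghrl at 0.85 and Gip with Sst at 0.85, and Pyy and Gcg have negative values with Gip, Cck and Ghrl.

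Markers of gut regions were set beside the hormones, since the segments sampled are not given. Nts had an r of 0.840 with the mean of the distal small intestine markers (permutation p over 30 relations adjusted to 0.0945), and of 0.461 without 2 libraries. Cck had an r of 0.753 with the proximal markers (adjusted permutation p = 0.258). None of the 30 relations passed. Of 13 proximal markers 9 had lower and 4 higher fitted values (median log2 fold change -0.32), of 10 distal markers 8 and 2 (median -0.14), and of 10 colon markers 3 and 7 (median 0.20). The part of the sampled region in the hormone values was not tested.

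For each member the 3 genes with the most similar deviations over the 12 libraries were found by Pearson r. Chga was closest to Ptprn (r = 0.934), a protein of the granule membrane, followed by Cdk5r2 (0.904) and Pclo (0.887). Chgb was closest to Pclo (0.946), a scaffold of secretory sites, then to Slc39a7 and Cdk5r2. Among the upper gut hormones, Gip was closest to Rasgrf2 (0.929), Uqcrc1 and Habp4, Sct to Ccndbp1 (0.943), Camk2a and Sdcbp2, and Sst to Zbtb42 (0.885), Grhpr and Cacfd1. Cck was closest to Nr0b2 (0.914), Zfand5 and Ambp, and Ghrl to Acyp1 (0.918), Arg1 and Taf8. Nts was closest to Exoc5 (0.962), 3300005D01Rik and Dok4, Pyy to Ceacam2 (0.936), Dpysl3 and Plaur, and Gcg to Cxcl10 (0.889), Piwil4 and Phf21b. Each is among the highest of 12798 genes compared, and these values have no test.

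The machinery that makes and stores these hormones was measured in the same libraries, and no gene of its lists passed the adjusted threshold with all 12 libraries. Prohormone processing enzymes cut and finish the precursors. Of 9 tested, 6 had lower and 3 higher fitted values, with a median log2 fold change of -0.31. Cpe, the carboxypeptidase that trims the cut ends, stood at 1027 ± 625 normalized counts in WT and 320 ± 94.3 in Chd8L+/- (SD) (log2 fold change -1.44, adjusted p = 0.121). Pam, which amidates peptides such as secretin and peptide YY, stood at 1186 ± 561 and 603 ± 265 (-0.90, adjusted p = 0.154), and Qpct at 18.4 ± 5.26 and 11.1 ± 5.87. The most abundant, Pcsk5, Cpd and Furin, had fitted values of 0.033, 0.031 and -0.31. Cpe, Pam and Ctsl were lower past the threshold without WT replicate 2. In that setting 13.6% of all tested genes were lower and 27.6% passed in either direction, which holds for the lists below too.

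Of 22 other granins and granule proteins, 14 had lower and 8 higher fitted values, with a median of -0.17. Vamp2, a fusion protein of the granule membrane, stood at 866 ± 159 in WT and 588 ± 64.6 in Chd8L+/- (log2 fold change -0.54, adjusted p = 0.121). Rab3c, a small GTPase of secretory vesicles, stood at 26.3 ± 7.42 and 52.2 ± 9.94 (0.98, adjusted p = 0.121), and Resp18 at 33.3 ± 15.3 and 18.5 ± 7.08. Rab3d and Cadps2, among the most abundant, had fitted values of 0.0081 and -0.25. Vamp2 was among those lower, and Rab3c was higher, past the threshold without WT replicate 2.

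Of 25 transcription factors of the enteroendocrine lineage, 11 had lower and 14 higher fitted values, with a median of 0.058. Peg3 stood at 49.3 ± 18.4 normalized counts in WT and 83.7 ± 16.6 in Chd8L+/- (log2 fold change 0.82, adjusted p = 0.124), and Prox1 at 154 ± 66.5 and 78.0 ± 26.9. The most abundant, Atoh1, Foxa1 and Sox4, had fitted values of -0.24, 0.053 and 0.30. Without WT replicate 2, Peg3 and Nkx2-2 were among those higher and Prox1 and St18 lower past the threshold.

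Of 4 other gut hormones tested, Tac1, the tachykinin precursor of enterochromaffin cells, stood at 83.9 ± 50.4 in WT and 159 ± 84.7 in Chd8L+/- (log2 fold change 0.92, adjusted p = 0.157), and Adm and Iapp had fitted values of -0.49 and -0.39. Among 9 enterochromaffin markers, Slc18a1, the vesicular monoamine transporter, stood at 244 ± 37.3 and 147 ± 31.3 (-0.74, adjusted p = 0.121), and Slc38a11 had a fitted value of 1.42. The median over these 9 markers was 0.027. When WT replicate 2 was left out, Slc18a1 was lower (-0.84, adjusted p = 0.00438) and Tac1 (1.21, adjusted p = 0.0172), Slc38a11 and Trpa1 were higher past the threshold. Tph1, the enzyme of serotonin synthesis in these cells, stood at 192 ± 49.3 and 210 ± 81.2.

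Of 9 nutrient sensors, 6 had lower and 3 higher fitted values (median -0.10). Ffar3, a receptor for short-chain fatty acids, stood at 422 ± 260 in WT and 88.7 ± 70.7 in Chd8L+/- (log2 fold change -2.23, adjusted p = 0.121). The tuft cell markers described below had a median of -1.78, and which cells the Ffar3 reads came from was not tested. Slc5a1 and Slc2a2, the glucose transporters that enterocytes share, had fitted values of -0.91 and -0.60, and Lpar5 one of -0.061. Without WT replicate 2, Ffar3 (-2.81, adjusted p = 0.00457) and Slc5a1 (-1.18, adjusted p = 0.00746) were lower past the threshold. Of 4 hormone receptors tested all had positive values (median 0.43), with Sort1, a neurotensin receptor, at 0.14, Sstr5 at 0.71, Sstr1 at 0.25 and Glp1r at 0.60. Of 11 peptidases on the list of ectoenzymes, 8 had lower and 3 higher values (median -0.12), with Thop1 at 0.72, Nln at 0.32 and Enpep at 0.54. Thop1 and Nln act mainly inside cells and not at the cell surface. With that library left out, Thop1 and Nln were among those past the threshold, both higher, and no hormone receptor passed.

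**Figure D5:**
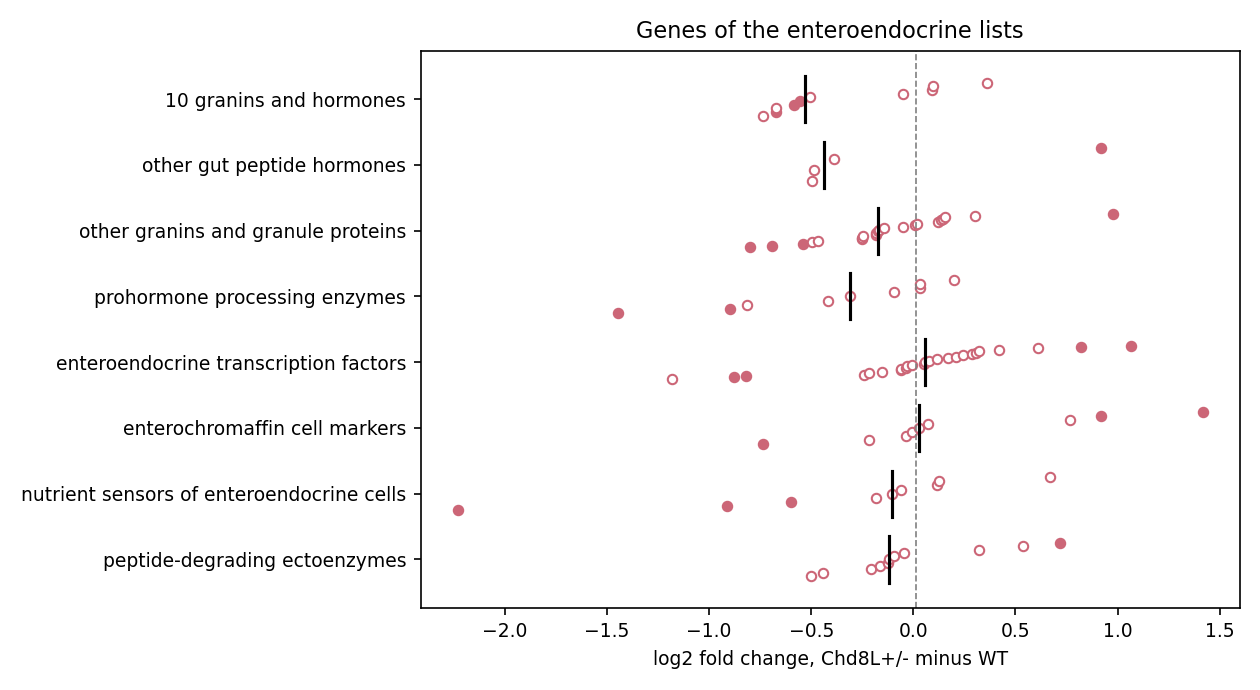
Log2 fold change, Chd8L+/- minus WT, of each tested gene of the 10 granins and hormones and of 7 related lists, without the 4 hormone receptors (points, filled where the p before adjustment was at most 0.05). Bars give the median of each list and the dashed line that of all genes, and the medians shown run from -0.53 for the granins and hormones to 0.058 for the transcription factors, with genes of each list shown on both sides of 0.

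Fitted values of markers of other cell types are given here too, and none of these markers passed the adjusted threshold with all 12 libraries. All 16 tuft cell markers had lower fitted values (median log2 fold change -1.78), with summed levels of 3972 to 37813 normalized counts in WT and 2320 to 15872 in Chd8L+/-. WT replicate 2 had the lowest WT sum. Without it 15 of the 16 were lower past the threshold, where 13.6% of all tested genes were lower and 27.6% passed in either direction. All 9 tested stromal markers had higher values (median 1.76), with sums of 166 to 710 and 240 to 2872, and without WT replicate 2 Col3a1, Col1a2 and Col1a1 were higher past the threshold (median of the list 2.30). Of 15 enterocyte markers 13 had lower values (median -0.31) and of 11 goblet cell markers 9 (median -0.28). Of 8 genes listed for Paneth cells 7 did (median -0.44), and of 11 lymphocyte markers all (median -0.30). The gene of the Paneth cell list with a higher value was Lyz1 (0.49). Without WT replicate 2, Lyz1 was higher past the threshold (0.77, adjusted p = 0.0212). Cd24a, Guca2b and Ang4, which is also on the goblet cell list, were then lower past it. Cd24a and Guca2b are not particular to Paneth cells either, so the values of this list do not describe Paneth cells alone. The general enteroendocrine list, which holds Chga, Chgb, Cck, Gip and Sct, had 10 lower and 9 higher of 19 (median -0.035). The part of these cells in the hormone values was not tested.

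Some of these hormones are also made outside the intestine, in the pancreatic islets, the stomach and nerves. Of the islet list 4 markers were tested, with sums of 1101 to 2234 in WT and 945 to 1789 in Chd8L+/-, and Ins1 and Ins2 were not analysed here. Of 18 acinar markers listed 5 were tested, and all had lower values (median -0.72). The most abundant of these 5, Zg16, had a fitted value of -0.025 and is also on the goblet cell list. Of 3 stomach markers tested 2 had lower values (median -0.17), and of 4 neuronal and glial markers 3 (median -0.18). Neuronal and glial markers summed to 96.4 to 476 in WT and 92.4 to 218 in Chd8L+/-. Most of that sum was Chat and Ret, at WT means of 138 and 106 and Chd8L+/- means of 39.4 and 87.5, and Chat is also on the tuft cell list. The part of these tissues in the levels was not tested either.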

How the data were processed

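Poly(A) RNA of gut epithelial cells from 5 WT and 7 Chd8L+/- mice was sequenced by the authors as 75-base single-end reads. The authors mapped reads to mm10 with Tophat2 and applied DESeq2, and they deposited a signal per gene and library, the read count divided by a size factor of the library (normalized count). The counting program, annotation and use of strand are not given in the sources used here. Values were whole multiples of 1 read, and reads were recovered for 100% of values (within 0.01). Recovered totals were 15691662 to 20761315, and counting error covers only the sampling of reads.

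Genotypes were compared with limma 3.58.1 (R 4.3.3, trended eBayes, two-sided) on log2(value + 1) over the 12808 genes with a mean of at least 10, all 12 libraries, no block, and Benjamini-Hochberg adjustment at 0.05. Fold changes are on this log2 scale. The steps were checked on simulated data. Other settings were edgeR 4.0.16 or DESeq2 1.42.0 on the recovered reads, quantile-normalized values, a pseudocount of 0.5 or 5, a minimum of 10 in each library or none, 2 kinds of block, and 1 library left out at a time. Correlations used 100000 permutations. Lengths and positions come from GENCODE M21 on GRCm38, promoters from RefSeq.

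The members and lists were chosen with earlier results of these data known. All members are named, and from each related list the 3 genes with the smallest p and, for most lists, the 3 with the highest mean were named. Genes named as passing without WT replicate 2, Tph1 and the ratios were chosen after their values were seen. Some genes of the lists that meet these rules are not reported here. For likeness, the 3 genes with the highest r were named. Each library is from a separate mouse.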

Additional observations from a re-analysis of the deposited data

Results flagged for a closer look

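Pyy in WT replicate 4 stood at 387 normalized counts, apart from the other 4 WT libraries at 108 to 188. The gap to its nearest neighbour was 0.712 of the range of the group, just past Dixon's 95% critical value for 5 samples. Of the 20 groups tested (10 genes in 2 genotypes) this was the only one, and chance gives about 1 in 20.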

How the results depend on the processing

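The number of the 10 genes past the adjusted threshold was 0 with all libraries in limma, 1 with DESeq2 (Sct), 1 with a block on the letter that opens the library name (Gip, log2 fold change -0.80, adjusted p = 0.0494; 3.52% of all genes) and 0 to 3 with 1 library left out. The 3 were found without WT replicate 2. Of all genes, 3 passed in limma, 5 in edgeR, 811 in DESeq2, 451 with the letter as a block, none with the replicate number as a block and 0 to 3533 with 1 library left out (the most without WT replicate 2). What the letter stands for is not given in the labels. The number that follows the letter recurs in both genotypes for most libraries. Its meaning is not given either, and no block on it was run. With the replicate number as a block, none of the 10 passed, and Sct had a log2 fold change of -0.69 (adjusted p = 0.252). Deviations of libraries with the same replicate number had correlations of -0.344 to 0.189. Of the 5 replicate numbers 1 fitted best with itself, which gave no sign that these numbers pair the mice. Paired mice need not share deviations over all genes, so this check cannot exclude a pairing. Whether the number in the library name pairs the mice was not tested. The median of the 10 genes was negative throughout, from -0.62 to -0.40. Ghrl turned positive with edgeR (0.015) and DESeq2 (0.0047), and over the left-out libraries it ran from -0.22 to 0.087. Chga ran from -0.10 to 0.29 and Chgb from -0.15 to 0.21 in the same way, both negative only without WT replicate 5. Gcg ran from 0.12 to 0.53 and Pyy from -0.86 to -0.39 with 1 library left out. With the replicate number and the library letter as blocks, Cck had -0.81 and -0.79, and Nts had -0.45 with the replicate number. The causes were not tested. Depth limits Pyy and Ghrl most, with 55 and 75 reads in their lowest libraries.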
